A study of Homo sapiens with 9 samples.

Results

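Mitosis and spindle genes are described here as a set of 59 named human genes of late G2, mitosis and cytokinesis, chosen by name and function and matched by Ensembl identifier to 59 of the 60676 genes in the count table. Of these, 58 had enough counts to be tested, among 15500 tested genes in all. The members were chosen with earlier results of these data known. RNA was sequenced from A549, an established human lung adenocarcinoma line, after lentiviral delivery of 1 of 3 short hairpin RNA (shRNA) constructs. shLITATS1-1 and shLITATS1-2 are separate hairpins against the long noncoding RNA LITATS1, and shNT is a hairpin with no intended target, with 3 libraries for each construct. The cells of all 9 libraries were transduced overnight, grown for 2 days, placed under puromycin to keep transduced cells, and harvested 3 days later. The cells are therefore a puromycin-selected pool that also carries a vector in the control. The series calls the 3 libraries of a group biological replicates, but no label says if each had its own transduction, and the tests therefore rest on a spread between libraries that may be technical.

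Mitosis begins when CDK1 bound to cyclin B is switched on by the CDC25 phosphatases, and the Polo and Aurora kinases then build the spindle. Kinetochores, assembled on centromeres that carry the histone variant CENP-A, attach the chromosomes to spindle microtubules, and the spindle assembly checkpoint holds CDC20 and the anaphase-promoting complex in check until all are attached. Messenger RNAs of most of these genes are made in G2 and mitosis and kept low in resting cells by the DREAM complex, which acts through a short promoter element called the cell cycle genes homology region (CHR). B-MYB, FOXM1 and the CCAAT-binding factor NF-Y act on the same class of promoters in dividing cells. In bulk RNA, fewer cells in these phases and less RNA per cell cannot be told apart.

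Each library held 24556848 to 24671296 fragments, and 19610514 to 19989652 of these fell in genes. LITATS1 (ENSG00000233621, chromosome 1 of GRCh38, 37454879 to 37474411, minus strand) was read by 72, 61 and 57 fragments in the shLITATS1-1 libraries, 69, 63 and 56 in the shLITATS1-2 libraries and 274, 283 and 328 in the shNT libraries. It was lower with both hairpins, at 22.05% of the shNT mean with shLITATS1-1 and 19.96% with shLITATS1-2, and the hairpins' own difference in LITATS1 did not pass (adjusted p = 0.438). Levels are given as CPM, counts scaled to a common library size after TMM normalisation. Of 6 markers of a lung epithelial line (EPCAM, KRT8, KRT18, KRT7, KRT19 and CDH1) all were detected. Their summed level was 9052 to 9226 CPM with shLITATS1-1, 5213 to 5527 CPM with shLITATS1-2 and 5518 to 5802 CPM with shNT. By the calls defined below, 4 of them rose and 0 fell with shLITATS1-1, where 30.5% of all tested genes rose and 30.5% fell. With shLITATS1-2, 2 rose and 3 fell, where 27.8% of all tested genes rose and 28.9% fell, so the sum hides opposite changes. The sum of 7 fibroblast markers was 5.95 to 6.84 CPM with shLITATS1-1, 2.61 to 2.98 CPM with shLITATS1-2 and 2.97 to 3.75 CPM with shNT, and 5 immune and 4 endothelial markers together stayed under 1 CPM in every library, with CD3E at 0. LUM, at 3.60 CPM with shLITATS1-1, 0.546 with shLITATS1-2 and 0.462 with shNT, had the largest difference among these, and the part of these markers in the results below was not tested. Mitochondrially encoded genes took 10.2% of gene fragments with shLITATS1-1, 7.97% with shLITATS1-2 and 12.2% with shNT. With those genes left out, the counts of members called lower and higher in each comparison were the same.

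The promoters of these genes share letters that the choice of members did not use. Of the 59 genes, 51 had an entry in the RefSeq promoter table (GRCh38.p14), with 63 windows running from 250 bases before to 50 bases after a transcription start, since some genes have several starts. On either strand, TTTGAA, the letters of the CHR, was in 60.3% of the members' windows, against 10.6% of 16411 windows of tested genes and 15.2% of all 35116 windows. TTTAAA, a variant of it, was in 27.0%, 8.42% and 12.2% of the same windows. CCAAT was in 73.0% of the members' windows, against 34.1% and 34.6%. TTTAAA reads the same on both strands, and matches may share bases, as a forward and a reverse CCAAT do in HMMR. The following stretches are the 130 bases before the start, 5′ to 3′ on the gene's strand, with matches to these motifs in capitals, CCAAT also as its reverse complement. PLK1, CCNB1, CCNB2, CDC20, CENPA, KIF20A and HMMR are shown as examples from the members whose levels are given by library below. Other such members, among them PTTG1, TOP2A and ECT2, are not shown. Each of these examples has CCAAT and either TTTGAA or TTTAAA in its printed stretch, so they do not represent the members as a set. The 9 tested members with neither hexamer in a window are not shown. Among them are BUB1, SGO1, SPC24, AURKB and NEK2. With shLITATS1-1 against shNT, the log2 fold changes of these 9 ran from -1.44 to -0.57. MAD2L1 and CDC25B are shown because their levels differ in pattern from most members.
PLK1: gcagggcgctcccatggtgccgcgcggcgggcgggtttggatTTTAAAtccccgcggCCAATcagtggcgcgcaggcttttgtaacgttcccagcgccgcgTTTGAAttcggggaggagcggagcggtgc
CCNB1: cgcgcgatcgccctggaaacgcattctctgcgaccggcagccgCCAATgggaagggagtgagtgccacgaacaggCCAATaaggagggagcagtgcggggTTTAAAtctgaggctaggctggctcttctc
CCNB2: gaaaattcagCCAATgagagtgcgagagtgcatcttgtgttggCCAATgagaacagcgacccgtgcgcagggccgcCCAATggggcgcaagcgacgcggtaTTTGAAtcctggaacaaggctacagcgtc
CDC20: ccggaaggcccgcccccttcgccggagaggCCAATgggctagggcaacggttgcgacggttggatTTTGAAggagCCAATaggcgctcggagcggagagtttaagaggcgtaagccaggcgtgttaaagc
CENPA: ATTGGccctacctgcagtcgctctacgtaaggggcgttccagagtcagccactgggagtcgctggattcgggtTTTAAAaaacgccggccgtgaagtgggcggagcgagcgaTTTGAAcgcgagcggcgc
KIF20A: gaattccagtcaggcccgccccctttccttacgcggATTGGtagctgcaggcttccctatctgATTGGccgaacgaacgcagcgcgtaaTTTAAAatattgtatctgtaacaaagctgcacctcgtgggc
HMMR: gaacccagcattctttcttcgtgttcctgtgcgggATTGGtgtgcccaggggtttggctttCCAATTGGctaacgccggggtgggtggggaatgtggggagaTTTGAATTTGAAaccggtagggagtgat
MAD2L1: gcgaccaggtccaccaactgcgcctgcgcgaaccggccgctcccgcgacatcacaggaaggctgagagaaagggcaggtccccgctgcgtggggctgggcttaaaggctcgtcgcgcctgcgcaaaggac
CDC25B: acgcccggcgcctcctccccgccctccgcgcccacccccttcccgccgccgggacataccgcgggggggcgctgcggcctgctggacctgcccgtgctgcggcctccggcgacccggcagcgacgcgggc
They lie at chr16:23678759-23678888 (+) for PLK1, chr5:69167020-69167149 (+) for CCNB1, chr15:59105016-59105145 (+) for CCNB2, chr1:43358851-43358980 (+) for CDC20, chr2:26785926-26786055 (+) for CENPA, chr5:138178982-138179111 (+) for KIF20A, chr5:163460502-163460631 (+) for HMMR, chr4:120066849-120066978 (-) for MAD2L1 and chr20:3786821-3786950 (+) for CDC25B. HMMR has TTTGAA in tandem close to its start, and PLK1 and CENPA carry both hexamers in the printed stretch. CCNB2 also carries both, with TTTAAA elsewhere in its window. The printed MAD2L1 stretch has none of the motifs, although TTTGAA and CCAAT occur elsewhere in its window. CDC25B has 4 annotated starts; the stretch before the most upstream one has no match, and the gene's windows together hold TTTAAA and CCAAT. A match is a description of these letters and not a measured binding site. Among the 50 tested members with a promoter entry, the median log2 fold change for shLITATS1-1 against shNT was -0.98 for the 34 with TTTGAA in a window and -1.17 for the 16 without. For shLITATS1-2 against shNT these medians were -0.55 and -0.52. Some of the 16, such as CCNB1 and KIF20A, carry TTTAAA. Split by either hexamer, the medians with shLITATS1-1 were -0.996 for 41 members with a match and -1.133 for 9 without. With shLITATS1-2 they were -0.524 and -0.525.

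The mitotic genes were lower with both hairpins, and the larger difference was with shLITATS1-1. Of 58 tested members, 57 fell with shLITATS1-1 relative to shNT and 0 rose, where 30.5% of all tested genes fell and 30.5% rose. With shLITATS1-2, 56 fell and 1, CDC25B, rose, where 28.9% of all tested genes fell and 27.8% rose. A call is an adjusted p under 0.05 in the quasi-likelihood test of edgeR, adjusted over all 15500 genes by the Benjamini-Hochberg method. The members' median log2 fold change was -1.02 with shLITATS1-1 and -0.55 with shLITATS1-2, beside medians of -0.007 and -0.00398 over all tested genes. A fall of at least 2-fold was seen for 31 members with shLITATS1-1, where 2.54% of tested genes fell that far, and for 0 with shLITATS1-2, where 2.17% did. All shLITATS1-1 libraries lay below all shNT libraries for 57 members, against 32% of tested genes, and all shLITATS1-2 libraries did so for 56, against 30.2%. Both comparisons use the same 3 shNT libraries. In all, 56 members fell with both hairpins, against 16% of tested genes.

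The summed level of the 59 members was 3034 ± 54.1 CPM in shLITATS1-1 cells, 4186 ± 76.9 CPM in shLITATS1-2 cells and 5657 ± 114 CPM in shNT cells (SD, n = 3 each). The libraries of each group stood apart from those of the others, at 3001 to 3096 CPM with shLITATS1-1, 4124 to 4272 CPM with shLITATS1-2 and 5527 to 5734 CPM with shNT. Levels of different genes are compared only as FPKM, which are these CPM divided by the gene's exon length in kilobases. On that scale the most abundant members in shNT cells were CKS2 at 165 ± 3.42 FPKM, CDC25B at 139 ± 3.89 and TOP2A at 89.4 ± 3.43 (SD, n = 3 each), while CDC25C at 3.34 ± 0.335, KIF15 at 3.45 ± 0.166 and NDC80 at 3.88 ± 0.0834 were the lowest apart from NUSAP1 and PRC1. These levels are a description, and the order between neighbours was not tested.

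**Figure D1:**
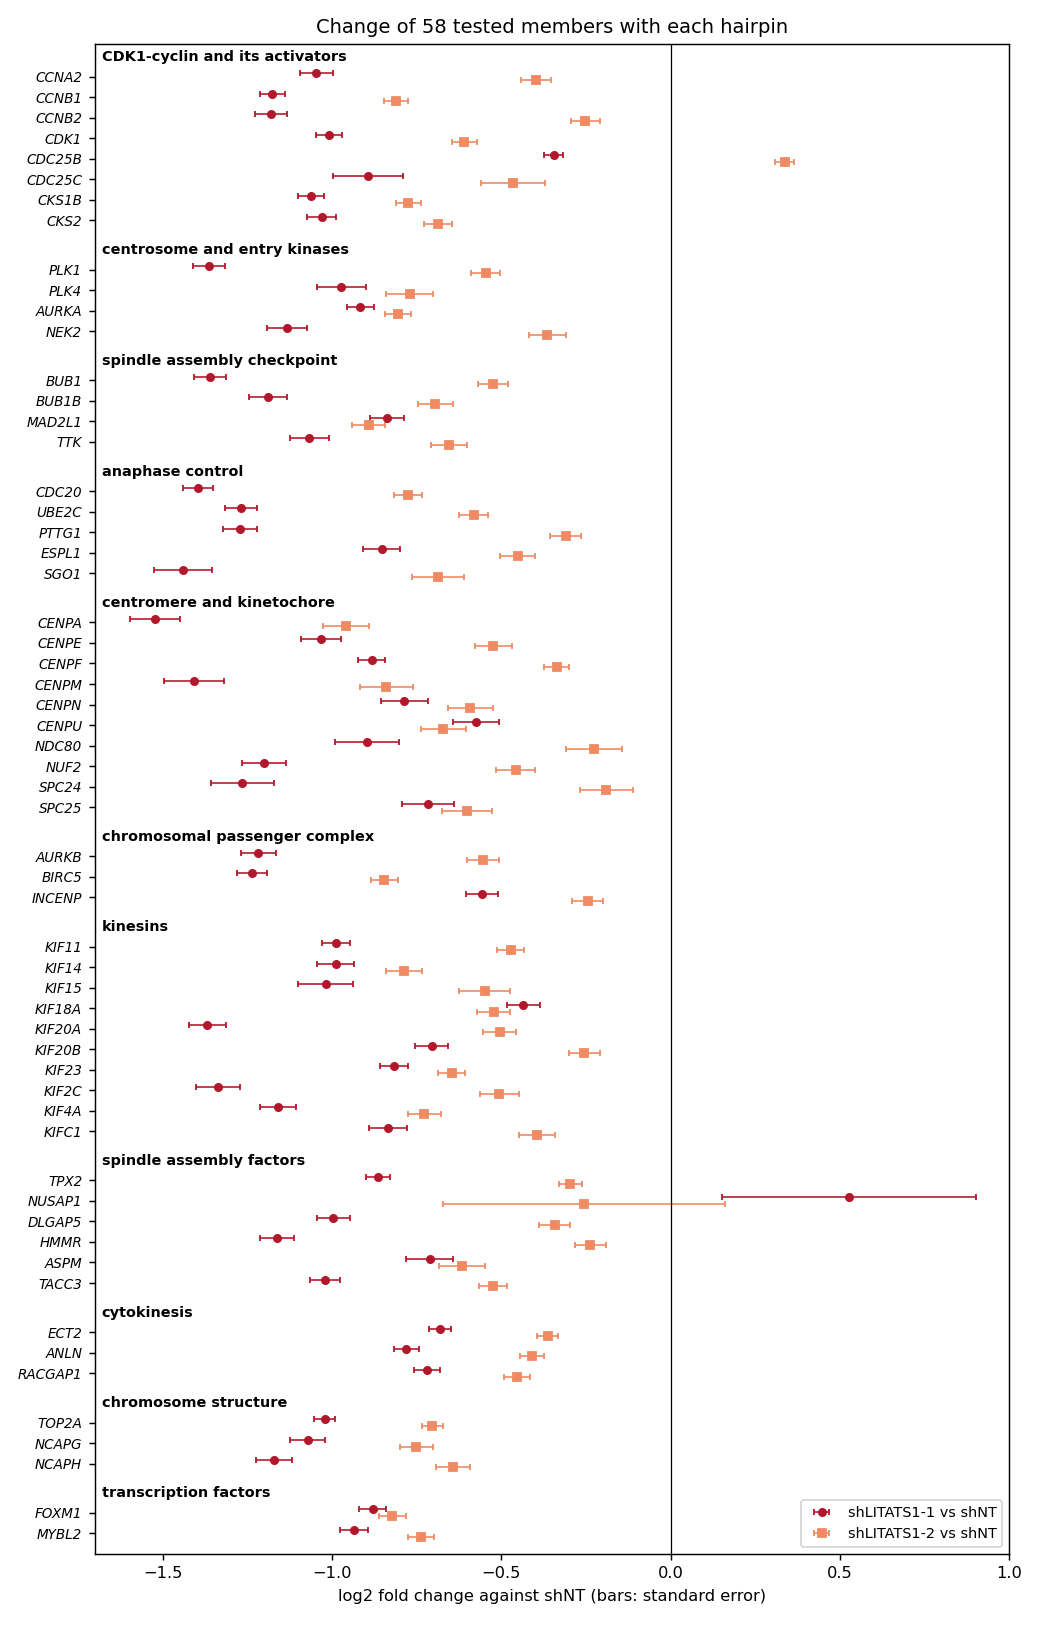
Log2 fold change against shNT (x axis) of the 58 tested members, grouped by role, with shLITATS1-1 as dark red circles and shLITATS1-2 as orange squares, and bars for the standard error from the edgeR fit. Nearly all points lie left of 0, CDC25B lies on both sides of it, and NUSAP1 has wide bars.

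Cyclins, CDK1 and their activators fell in 8 of 8 cases with shLITATS1-1 and in 7 of 8 with shLITATS1-2. Beside this count and those of each role below, 30.5% of all tested genes fell with shLITATS1-1 and 28.9% with shLITATS1-2. The roles are small, and no role was tested as a set. CCNB1, which encodes cyclin B1, the partner that carries CDK1 into mitosis, was measured at 78.5, 84.99 and 79.8 CPM in the shLITATS1-1 libraries, 107, 105 and 102 CPM in the shLITATS1-2 libraries and 185, 183 and 182 CPM in the shNT libraries. The 3 groups did not overlap, and the shNT libraries were the highest. Its log2 fold change was -1.18 (SE 0.037, adjusted p = 1.76e-40) with shLITATS1-1 and -0.81 (SE 0.035, adjusted p = 6.97e-32) with shLITATS1-2. CCNB2, encoding cyclin B2, was at 33.4, 37.5 and 35.5 CPM in the shLITATS1-1 libraries, 66.8, 70.4 and 65.1 CPM in the shLITATS1-2 libraries and 76.9, 81.5 and 82.7 CPM in the shNT libraries, so that shLITATS1-2 lay closer to shNT than to shLITATS1-1. It fell by 1.18 on the log2 scale with shLITATS1-1 and by 0.25 with shLITATS1-2. CDK1, the kinase itself, changed by -1.01 (SE 0.04) with shLITATS1-1 and -0.61 (SE 0.038) with shLITATS1-2, and CCNA2, encoding cyclin A2, by -1.05 (SE 0.049) with shLITATS1-1 and -0.40 (SE 0.045) with shLITATS1-2. The small CDK-binding proteins CKS1B (-1.06 with shLITATS1-1 and -0.77 with shLITATS1-2) and CKS2 (-1.03 with shLITATS1-1 and -0.69 with shLITATS1-2) and the CDK1-activating phosphatase CDC25C (-0.89 with shLITATS1-1 and -0.47 with shLITATS1-2) fell with both hairpins.

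CDC25B, a phosphatase that starts CDK1 activation at the centrosome, did not follow the others. Its level was 480.2, 468 and 464 CPM in the shLITATS1-1 libraries, 762, 752 and 754 CPM in the shLITATS1-2 libraries and 583, 616 and 597 CPM in the shNT libraries. The shLITATS1-2 libraries were the highest and the shLITATS1-1 libraries the lowest, with no overlap between any groups. It fell by 0.35 (SE 0.029, adjusted p = 2.13e-17) on the log2 scale with shLITATS1-1 and rose by 0.34 (SE 0.028, adjusted p = 4.07e-17) with shLITATS1-2. The direct difference between the hairpins was -0.68 (SE 0.029, adjusted p = 6.98e-33). It held the largest part of the summed fragments of its role, and the 8 genes together stood at 806 ± 8.82 CPM in shLITATS1-1 cells, 1216 ± 10.4 CPM in shLITATS1-2 cells and 1311 ± 16.1 CPM in shNT cells (SD, n = 3 each).

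Kinases of the centrosome and of mitotic entry fell in 4 of 4 cases with each hairpin. PLK1, the Polo-like kinase that acts from entry to cytokinesis, was at 48.8, 46.8 and 41.5 CPM in the shLITATS1-1 libraries, 86.5, 79.3 and 75.99 CPM in the shLITATS1-2 libraries and 118, 121 and 114 CPM in the shNT libraries. All shLITATS1-1 libraries lay below all shLITATS1-2 libraries, which lay below all shNT libraries. It changed by -1.36 (SE 0.047, adjusted p = 1.54e-33) with shLITATS1-1, to 38.9% of shNT, and by -0.55 (SE 0.043, adjusted p = 4.67e-17) with shLITATS1-2, to 68.5%. AURKA, the Aurora kinase of spindle poles, was at 68.9, 70.03 and 72.02 CPM in the shLITATS1-1 libraries, 76.7, 80.4 and 70.7 CPM in the shLITATS1-2 libraries and 132, 133 and 133 CPM in the shNT libraries. Its hairpin libraries overlapped each other and lay below shNT, with changes of -0.92 (SE 0.04) with shLITATS1-1 and -0.80 (SE 0.039) with shLITATS1-2. NEK2, a kinase that splits the centrosomes, changed by -1.13 (SE 0.06) with shLITATS1-1 and -0.36 (SE 0.054) with shLITATS1-2, and PLK4, which starts centriole duplication, by -0.97 (SE 0.072) with shLITATS1-1 and -0.77 (SE 0.069) with shLITATS1-2.

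Genes of the spindle assembly checkpoint fell in 4 of 4 cases with each hairpin. BUB1, a checkpoint kinase at the kinetochore, was at 33.7, 38.6 and 36.1 CPM in the shLITATS1-1 libraries, 65.2, 67.2 and 60.99 CPM in the shLITATS1-2 libraries and 96.1, 92.1 and 90.1 CPM in the shNT libraries. The groups did not overlap, and the changes were -1.36 (SE 0.048, adjusted p = 1.65e-37) with shLITATS1-1 and -0.52 (SE 0.043, adjusted p = 1.32e-17) with shLITATS1-2. MAD2L1 encodes MAD2, the inhibitor that binds CDC20. It was at 35.97, 38.9 and 34.03 CPM in the shLITATS1-1 libraries, 34.01, 34.8 and 36.2 CPM in the shLITATS1-2 libraries and 64.2, 65.98 and 64.5 CPM in the shNT libraries, with overlapping hairpin libraries below all shNT libraries. Its changes were -0.84 (SE 0.05, adjusted p = 1.3e-24) with shLITATS1-1 and -0.89 (SE 0.049, adjusted p = 4.09e-26) with shLITATS1-2. BUB1B, encoding BUBR1 of the same inhibitory complex, changed by -1.19 with shLITATS1-1 and -0.69 with shLITATS1-2, and TTK, encoding the checkpoint kinase MPS1, by -1.07 with shLITATS1-1 and -0.65 with shLITATS1-2.

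Genes that trigger or guard anaphase fell in 5 of 5 cases with each hairpin. CDC20, the activator of the anaphase-promoting complex in mitosis, was at 41.7, 42.8 and 41.5 CPM in the shLITATS1-1 libraries, 65.02, 66.3 and 62.4 CPM in the shLITATS1-2 libraries and 107, 117 and 108 CPM in the shNT libraries. The 3 groups were apart, at 42.0 ± 0.685 CPM with shLITATS1-1, 64.6 ± 1.97 with shLITATS1-2 and 111 ± 5.42 with shNT (SD, n = 3 each), and the changes were -1.40 (SE 0.044, adjusted p = 3.07e-40) with shLITATS1-1 and -0.78 (SE 0.041, adjusted p = 2.78e-27) with shLITATS1-2. PTTG1, encoding securin, which inhibits separase, was at 28.1, 30.2 and 27.4 CPM in the shLITATS1-1 libraries, 57.2, 56.5 and 53.3 CPM in the shLITATS1-2 libraries and 69.1, 69.9 and 68.1 CPM in the shNT libraries. Here shLITATS1-2 was nearer to shNT, with changes of -1.27 (SE 0.05) with shLITATS1-1 and -0.31 (SE 0.045) with shLITATS1-2. UBE2C, the ubiquitin-conjugating enzyme of the complex, changed by -1.27 with shLITATS1-1 and -0.58 with shLITATS1-2, ESPL1, encoding separase, by -0.85 with shLITATS1-1 and -0.45 with shLITATS1-2, and SGO1, encoding shugoshin, which protects centromeric cohesin, by -1.44 with shLITATS1-1 and -0.69 with shLITATS1-2.

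**Figure D2:**
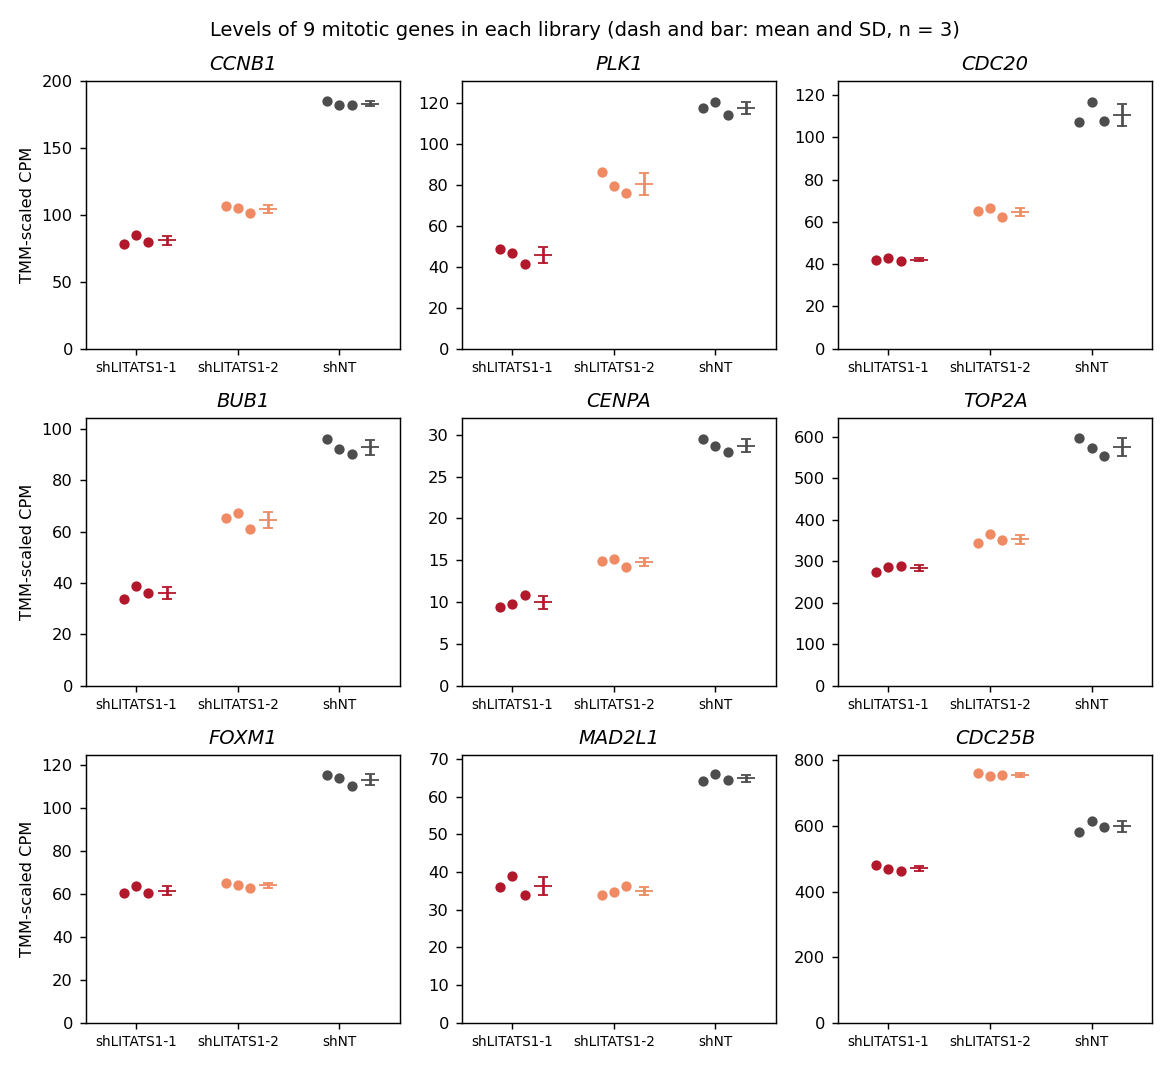
TMM-scaled CPM (y axis, from 0) of 9 members in each of the 9 libraries, by group, with the mean and SD beside the points (n = 3). The shNT points are the highest in every panel except that of CDC25B, where shLITATS1-2 is the highest, and the points of the hairpin groups overlap for FOXM1 and MAD2L1.

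Centromere and kinetochore genes fell in 10 of 10 cases with each hairpin. CENPA, the centromeric histone H3 variant, was at 9.36, 9.75 and 10.9 CPM in the shLITATS1-1 libraries, 14.9, 15.1 and 14.2 CPM in the shLITATS1-2 libraries and 29.5, 28.7 and 27.9 CPM in the shNT libraries. No library of one group reached the range of another, and the change with shLITATS1-1, -1.52 (SE 0.074, adjusted p = 2.58e-29), was the lowest of all tested members. With shLITATS1-2 it was -0.96 (SE 0.067, adjusted p = 7.8e-21), also the lowest of the members in that comparison. CENPM (-1.41 with shLITATS1-1 and -0.84 with shLITATS1-2), CENPN (-0.79 with shLITATS1-1 and -0.59 with shLITATS1-2) and CENPU (-0.57 with shLITATS1-1 and -0.67 with shLITATS1-2) encode subunits of the constitutive centromere network. CENPE (-1.03 with shLITATS1-1 and -0.52 with shLITATS1-2), a kinetochore motor, and CENPF (-0.88 with shLITATS1-1 and -0.34 with shLITATS1-2), a large protein of the outer kinetochore, also fell with both hairpins.

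The 4 subunits of the NDC80 complex, which grips microtubules, fell with both hairpins. SPC24 was at 5.89, 8.43 and 6.59 CPM in the shLITATS1-1 libraries, 15.4, 13.7 and 15.0 CPM in the shLITATS1-2 libraries and 16.7, 17.04 and 16.5 CPM in the shNT libraries. With shLITATS1-1 it changed by -1.26 (SE 0.093, adjusted p = 8.7e-20), and with shLITATS1-2 by -0.19 (SE 0.079, adjusted p = 0.0343). NDC80 was at 8.05, 6.38 and 8.06 CPM in the shLITATS1-1 libraries, 12.6, 10.8 and 12.4 CPM in the shLITATS1-2 libraries and 14.1, 13.6 and 14.1 CPM in the shNT libraries, with changes of -0.90 (SE 0.094, adjusted p = 2.58e-13) with shLITATS1-1 and -0.23 (SE 0.084, adjusted p = 0.0173) with shLITATS1-2. These were the 2 members' calls with shLITATS1-2 that DESeq2 did not make (adjusted p = 0.118 for SPC24 and 0.0733 for NDC80). Over all alternatives their adjusted p ran from 0.0258 to 0.416 and from 0.0137 to 0.248. Without shLITATS1-2 replicate 2 it was 0.175 for SPC24 and 0.14 for NDC80. Without shNT replicate 1 it was 0.0669 and 0.051, and without shNT replicate 2 the SPC24 call alone was lost, at 0.0818. With a minimum count of 50 the SPC24 call alone was also lost, at 0.0522. With shLITATS1-2, NUF2 fell by 0.46 (SE 0.058) and SPC25 by 0.60 (SE 0.074), and with shLITATS1-1 they fell by 1.20 and 0.72. Differences between genes in their response were not tested.

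The chromosomal passenger complex corrects faulty attachments and later marks the cleavage site. Its kinase gene AURKB was at 29.1, 28.7 and 27.8 CPM in the shLITATS1-1 libraries, 47.2, 45.9 and 42.5 CPM in the shLITATS1-2 libraries and 63.4, 69.4 and 66.3 CPM in the shNT libraries. The groups did not overlap, and the changes were -1.22 (SE 0.052, adjusted p = 1.66e-32) with shLITATS1-1 and -0.55 (SE 0.047, adjusted p = 9.56e-17) with shLITATS1-2. BIRC5, encoding the subunit survivin, changed by -1.24 with shLITATS1-1 and -0.84 with shLITATS1-2 and INCENP, encoding the scaffold, by -0.56 with shLITATS1-1 and -0.25 with shLITATS1-2. CDCA8, encoding the remaining subunit borealin, is not among the 59 and changed by -1.001 with shLITATS1-1 and -0.70 with shLITATS1-2, so that all 4 subunit genes fell with each hairpin.

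Mitotic kinesins, the motors of spindle and midzone, fell in 10 of 10 cases with each hairpin. KIF20A, a motor of the midzone, was at 21.98, 24.2 and 21.2 CPM in the shLITATS1-1 libraries, 39.5, 41.4 and 41.7 CPM in the shLITATS1-2 libraries and 57.9, 59.9 and 56.2 CPM in the shNT libraries. The groups were apart, and the changes were -1.37 (SE 0.055, adjusted p = 6.58e-34) with shLITATS1-1 and -0.51 (SE 0.049, adjusted p = 1.8e-14) with shLITATS1-2. KIF18A, which limits chromosome movement at the metaphase plate, was at 39.2, 39.8 and 41.4 CPM in the shLITATS1-1 libraries, 37.1, 37.9 and 38.4 CPM in the shLITATS1-2 libraries and 56.4, 54.3 and 52.2 CPM in the shNT libraries, with its 3 shLITATS1-1 libraries slightly above its 3 shLITATS1-2 libraries under TMM scaling. It changed by -0.44 (SE 0.049) with shLITATS1-1 and -0.52 (SE 0.049) with shLITATS1-2, the smallest change among the kinesins with shLITATS1-1. KIF11, the motor that pushes the poles apart, changed by -0.99 with shLITATS1-1 and -0.47 with shLITATS1-2, and KIF15, which can share that work, by -1.02 with shLITATS1-1 and -0.55 with shLITATS1-2. KIF2C, a microtubule depolymerase at centromeres, changed by -1.34 with shLITATS1-1 and -0.51 with shLITATS1-2, KIF4A, a chromokinesin, by -1.16 with shLITATS1-1 and -0.73 with shLITATS1-2, and KIFC1, a minus-end motor that gathers the poles, by -0.83 with shLITATS1-1 and -0.40 with shLITATS1-2. The cytokinesis motors KIF14 (-0.99 with shLITATS1-1 and -0.79 with shLITATS1-2), KIF20B (-0.71 with shLITATS1-1 and -0.26 with shLITATS1-2) and KIF23 (-0.82 with shLITATS1-1 and -0.65 with shLITATS1-2) fell as well.

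Spindle assembly factors fell in 5 of 6 cases with each hairpin. HMMR, a hyaluronan receptor that also orients the spindle, was at 29.9, 32.8 and 31.5 CPM in the shLITATS1-1 libraries, 56.95, 61.9 and 59.9 CPM in the shLITATS1-2 libraries and 74.4, 69.5 and 66.8 CPM in the shNT libraries. The groups did not overlap, and shLITATS1-2 was nearer to shNT, with changes of -1.16 (SE 0.051, adjusted p = 6.07e-32) with shLITATS1-1 and -0.24 (SE 0.045, adjusted p = 6.15e-06) with shLITATS1-2. TPX2, which activates Aurora A on the spindle, changed by -0.86 with shLITATS1-1 and -0.30 with shLITATS1-2, DLGAP5, which stabilises kinetochore fibres, by -0.996 with shLITATS1-1 and -0.34 with shLITATS1-2, TACC3, also of these fibres, by -1.02 with shLITATS1-1 and -0.52 with shLITATS1-2, and ASPM, of the spindle poles, by -0.71 with shLITATS1-1 and -0.62 with shLITATS1-2. NUSAP1, a microtubule-bundling protein, did not pass in any comparison. It was read by only 16, 11 and 11 fragments in the shLITATS1-1 libraries, 4, 9 and 11 in the shLITATS1-2 libraries and 9, 9 and 9 in the shNT libraries, and its adjusted p was 0.224 with shLITATS1-1 and 0.626 with shLITATS1-2.

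Of the cytokinesis genes, 3 of 4 could be tested and fell with both hairpins. ECT2, the exchange factor that activates RhoA at the cleavage furrow, was at 170.0, 179 and 174 CPM in the shLITATS1-1 libraries, 215, 222 and 214 CPM in the shLITATS1-2 libraries and 290.1, 276 and 272 CPM in the shNT libraries. The groups did not overlap, and it changed by -0.68 (SE 0.032, adjusted p = 9.11e-30) with shLITATS1-1 and -0.36 (SE 0.032, adjusted p = 1.87e-16) with shLITATS1-2. RACGAP1, the centralspindlin subunit that recruits ECT2, changed by -0.72 with shLITATS1-1 and -0.45 with shLITATS1-2, and ANLN, encoding the furrow scaffold anillin, by -0.78 with shLITATS1-1 and -0.41 with shLITATS1-2. PRC1, which bundles midzone microtubules, was read by 3, 6 and 1 fragments in the shLITATS1-1 libraries, 10, 4 and 8 in the shLITATS1-2 libraries and 5, 10 and 6 in the shNT libraries and was not tested. In GENCODE 29, 62.2% of the exon bases of NUSAP1 and 57.6% of those of PRC1 are shared with another gene on the same strand, ENSG00000285920 and ENSG00000284946. Fragments in shared exons can be left out as ambiguous, and such fragments made up 10.2% to 10.9% of each library. Whether this set the low counts of NUSAP1 and PRC1 was not tested. Of the 59 members, 24 share any exon base with another annotated gene and 10 share over 10%; the largest shares after NUSAP1 and PRC1 are those of NCAPG at 33.1% and CENPN at 22.8%.

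Genes of chromosome structure fell in 3 of 3 cases with each hairpin. TOP2A, the topoisomerase that untangles sister chromatids, was at 275, 287 and 288 CPM in the shLITATS1-1 libraries, 343, 366 and 351 CPM in the shLITATS1-2 libraries and 598, 574 and 554 CPM in the shNT libraries. It changed by -1.02 (SE 0.031, adjusted p = 4.3e-41) with shLITATS1-1 and -0.70 (SE 0.031, adjusted p = 6.78e-32) with shLITATS1-2, with no overlap between groups. The condensin I subunits NCAPG (-1.07 with shLITATS1-1 and -0.75 with shLITATS1-2) and NCAPH (-1.17 with shLITATS1-1 and -0.64 with shLITATS1-2) also fell. The transcription factor genes of the set, which act on promoters of this class, fell in 2 of 2 cases with each hairpin. FOXM1 was at 60.3, 63.8 and 60.6 CPM in the shLITATS1-1 libraries, 65.3, 64.2 and 62.8 CPM in the shLITATS1-2 libraries and 115, 114 and 110.3 CPM in the shNT libraries. Its hairpin libraries overlapped each other, and it changed by -0.88 (SE 0.04, adjusted p = 9.03e-31) with shLITATS1-1 and -0.82 (SE 0.039, adjusted p = 2.06e-29) with shLITATS1-2. MYBL2, encoding B-MYB, changed by -0.93 (SE 0.04) with shLITATS1-1 and -0.74 (SE 0.039) with shLITATS1-2.

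**Figure D3:**
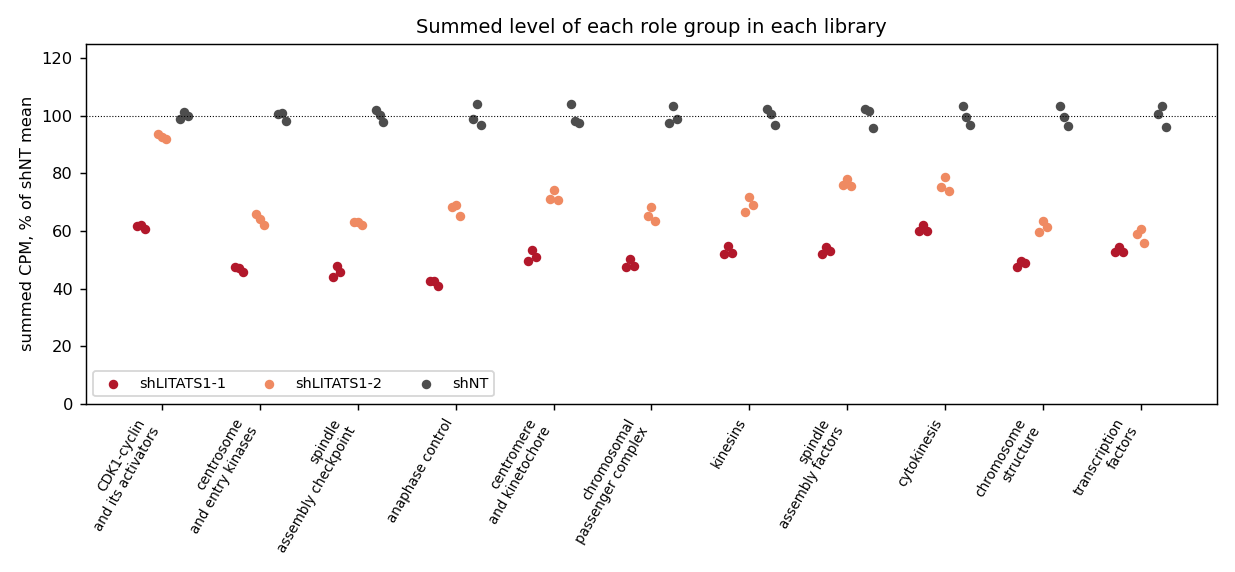
Summed CPM of each role group in each library, as a percentage of the shNT mean of that group (y axis, from 0), with shLITATS1-1 in dark red, shLITATS1-2 in orange and shNT in grey. In all 11 role groups the shLITATS1-1 libraries are the lowest and the shNT libraries the highest, and the shLITATS1-2 points lie closest to shNT for CDK1-cyclin genes, whose sum includes CDC25B. As a share of gene fragments, without TMM factors, that sum was 0.0778% with shLITATS1-1, 0.129% with shLITATS1-2 and 0.128% with shNT, and the shLITATS1-2 and shNT libraries overlapped.

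The direct comparison of the hairpins asks whether they lowered these genes by different amounts. With shLITATS1-1 relative to shLITATS1-2, 51 of 58 members were lower and 0 higher, where 30.7% of all tested genes were lower and 30.2% higher. All shLITATS1-1 libraries lay below all shLITATS1-2 libraries for 49 members, against 32.5% of tested genes. The members' median log2 fold change was -0.44, beside -0.01 over all tested genes. SPC24 at -1.07 (SE 0.095, adjusted p = 3.05e-16) was the only member at least 2-fold lower, as were 3.05% of all tested genes. PTTG1 (-0.96, SE 0.051), CCNB2 (-0.93, SE 0.049), HMMR (-0.92, SE 0.051), KIF20A (-0.86, SE 0.057) and BUB1 (-0.83, SE 0.049) followed. The 7 members that did not pass were FOXM1 (-0.06, SE 0.043, adjusted p = 0.24), ASPM (-0.09, SE 0.073, adjusted p = 0.278), SPC25 (-0.11, SE 0.082, adjusted p = 0.226), MAD2L1 (0.05, SE 0.054, adjusted p = 0.405), KIF18A (0.09, SE 0.051, adjusted p = 0.136), CENPU (0.10, SE 0.072, adjusted p = 0.248) and NUSAP1 (0.78, SE 0.38, adjusted p = 0.0727). Among the smallest differences that passed were those of PLK4 (-0.20, SE 0.079, adjusted p = 0.0229), AURKA (-0.11, SE 0.042, adjusted p = 0.0182) and CENPN (-0.19, SE 0.073, adjusted p = 0.0171), and these did not pass in DESeq2. Over all alternatives the adjusted p ran from 0.000212 to 0.28 for PLK4, 6.34e-07 to 0.206 for AURKA and 7.2e-05 to 0.19 for CENPN. The PLK4 call was lost without shLITATS1-1 replicate 2 (0.066) or 3 (0.186) or without shLITATS1-2 replicate 3 (0.28). The AURKA call was lost without shLITATS1-1 replicate 1 (0.087) or 2 (0.0568) or shLITATS1-2 replicate 2 (0.206), and that of CENPN without shLITATS1-1 replicate 1 (0.19) or shLITATS1-2 replicate 2 (0.075). With libraries scaled by size alone, shLITATS1-2 against shNT had 2967 lower and 6058 higher calls over all genes in place of 4485 and 4302. The direct comparison had 6912 and 3293 in place of 4755 and 4684. Under that scaling the members' median was -0.43 in place of -0.55 with shLITATS1-2 against shNT. Between the hairpins it was -0.58 in place of -0.44. A change of scaling shifts all genes of a comparison by nearly the same amount. The members' median relative to that of all genes, -0.54 and -0.43, therefore could hardly change and is no check.

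**Figure D4:**
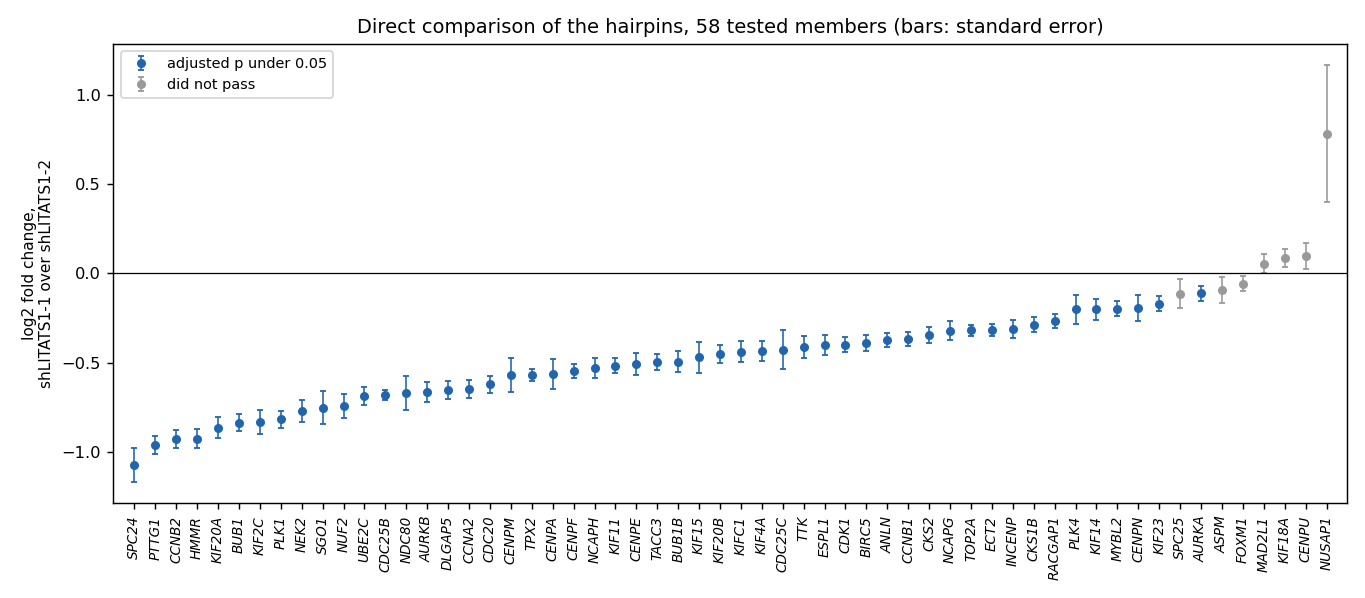
Log2 fold change of shLITATS1-1 over shLITATS1-2 (y axis) for the 58 tested members, ordered along the x axis, with bars for the standard error, blue for an adjusted p under 0.05 and grey otherwise. The 51 blue points all lie below 0, and the 7 grey points lie near 0 apart from NUSAP1 at 0.78.

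Of 131 other genes of mitosis, taken from lists of complexes, 129 were tested. Like the members, these lists were chosen with earlier results of these data known. With shLITATS1-1, 105 fell and 6 rose relative to shNT, and with shLITATS1-2 105 fell and 7 rose. Of all tested genes, 30.5% fell and 30.5% rose with shLITATS1-1, and 28.9% fell and 27.8% rose with shLITATS1-2. Their median was -0.48 with shLITATS1-1 and -0.35 with shLITATS1-2, beside -1.02 and -0.55 for the 58 tested members. Named here are the genes with the lowest and the highest change with shLITATS1-1 in a list. Among 31 other kinetochore and centromere genes, SKA1, which helps the NDC80 complex hold microtubules, changed by -0.92 with shLITATS1-1 and -0.34 with shLITATS1-2, and SPDL1, encoding the dynein adaptor spindly, rose by 0.69 with shLITATS1-1 and 1.02 with shLITATS1-2. Among 17 genes of the anaphase-promoting complex and its enzymes, the median was -0.20 with shLITATS1-1 and -0.18 with shLITATS1-2. Of that list UBE2S, the chain-extending ubiquitin enzyme, changed by -1.22 with shLITATS1-1 and -0.29 with shLITATS1-2 and the subunit gene ANAPC16 by 0.10 with shLITATS1-1, while its shLITATS1-2 value of -0.09 did not pass (adjusted p = 0.0693). The ANAPC16 call with shLITATS1-1 had an adjusted p of 0.0127 to 0.0928 over the alternatives. It was lost without shLITATS1-1 replicate 1 or 3 or shNT replicate 2. It was also lost with libraries scaled by size alone (0.0732) and with no filter on low counts (0.0928). The 6 other condensin genes all fell with both hairpins, NCAPD2 by 1.02 with shLITATS1-1 and 0.63 with shLITATS1-2, and so did the 8 centriole and pericentriole genes, CENPJ by 0.80 with shLITATS1-1 and 0.27 with shLITATS1-2. The smallest changes with shLITATS1-1 in these lists were those of NCAPH2, at -0.50 with shLITATS1-1 and -0.46 with shLITATS1-2, and PCNT, at -0.37 with shLITATS1-1 and -0.18 with shLITATS1-2. The PCNT call with shLITATS1-2 was lost with libraries scaled by size alone (adjusted p = 0.302, range over alternatives 0.00409 to 0.302).

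Other microtubule and cytokinesis genes are described by the same rule. Beside the counts below, 30.5% of all tested genes fell and 30.5% rose with shLITATS1-1, and 28.9% and 27.8% with shLITATS1-2. TROAP, of the spindle, changed by -1.29 with shLITATS1-1 and -0.64 with shLITATS1-2. DEPDC1B, from the list of other cytokinesis genes, changed by -1.30 with shLITATS1-1 and -0.53 with shLITATS1-2. The same list of 7 genes includes KIF24, a kinesin of centrioles rather than of cytokinesis. KIF24 changed by -0.35 (SE 0.087, adjusted p = 0.000421) with shLITATS1-1, the smallest change of that list. Its shLITATS1-2 value of 0.0015 (adjusted p = 0.99) did not pass. NUMA1, which tethers dynein at the poles, was at -0.02 (SE 0.044) with shLITATS1-1, which did not pass, and rose by 0.32 (SE 0.042) with shLITATS1-2. Tubulin genes were mixed, with 4 of 7 lower and 1 higher with shLITATS1-1, and 5 lower and 1 higher with shLITATS1-2. TUBA1C changed by -0.57 with shLITATS1-1 and -0.33 with shLITATS1-2 and TUBA1A rose by 0.41 with shLITATS1-1 and 0.25 with shLITATS1-2. Of 10 cohesin genes, 7 fell with shLITATS1-1 and 8 with shLITATS1-2, CDCA5, encoding the cohesin protector sororin, by 0.94 with shLITATS1-1 and 0.49 with shLITATS1-2, while WAPL, which releases cohesin, was at -0.01 with shLITATS1-1 and -0.08 with shLITATS1-2 and did not pass. The DREAM and MuvB subunits that act on CHR promoters were lower in 5 of 8 cases and higher in 1 for shLITATS1-1, and lower in 6 and higher in 0 for shLITATS1-2, with LIN9 at -0.61 with shLITATS1-1 and -0.57 with shLITATS1-2. The higher gene was RBL2, encoding the pocket protein p130, at 0.12 (SE 0.047, adjusted p = 0.0212) with shLITATS1-1, while its shLITATS1-2 value of 0.02 (SE 0.047, adjusted p = 0.79) did not pass. The RBL2 call with shLITATS1-1 had an adjusted p of 0.00926 to 0.202 over the alternatives and was lost without shLITATS1-1 replicate 2 or 3 or shNT replicate 3 and with no filter on low counts.

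**Figure D5:**
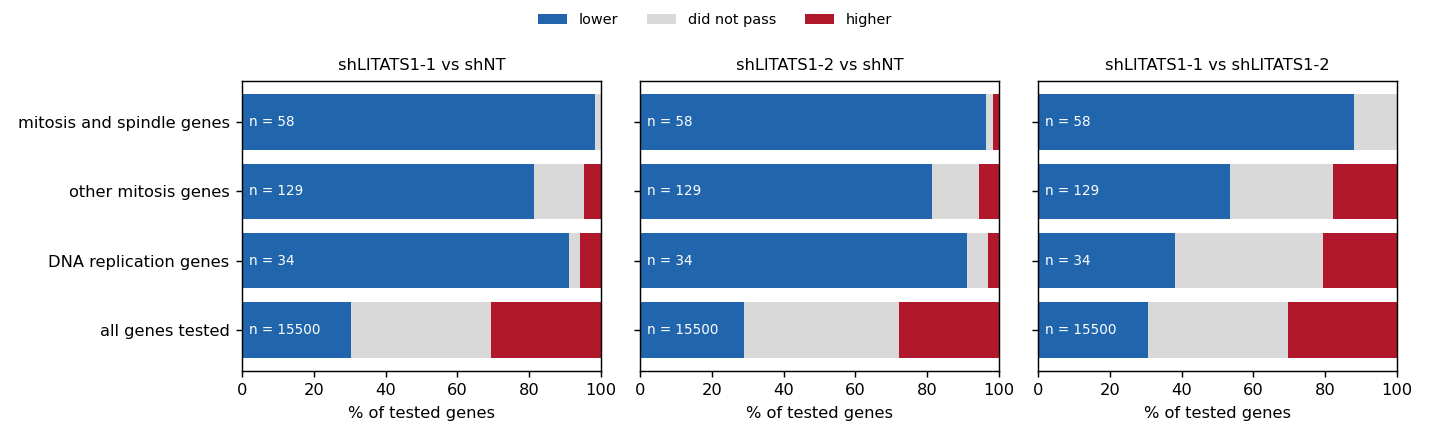
Share of tested genes (x axis, %) that were lower (blue), did not pass (grey) or were higher (red) in each comparison, for the mitosis and spindle genes, other mitosis genes, DNA replication genes and all genes tested. The blue part is longest for the mitosis and spindle genes in all 3 panels. In the panel of shLITATS1-1 against shLITATS1-2 it is 51 of 58 genes there, 69 of 129 among other mitosis genes and 13 of 34 among DNA replication genes. The red part of that panel is 0, 23 and 7 genes in the same order. Of all tested genes, 30.7% were lower and 30.2% higher in that comparison.

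DNA replication genes, which act in S phase, give a neighbouring stage of the cycle. Of 34, 31 fell and 2 rose with shLITATS1-1, and 31 fell and 1 rose with shLITATS1-2. The shares over all tested genes were 30.5% lower and 30.5% higher with shLITATS1-1, and 28.9% and 27.8% with shLITATS1-2. Medians of the replication genes were -0.63 for shLITATS1-1 and -0.56 for shLITATS1-2. CDC45, part of the replicative helicase, changed by -1.09 with shLITATS1-1 and -0.78 with shLITATS1-2. Between the hairpins, 13 of 34 replication genes were lower and 7 higher with shLITATS1-1, beside 30.7% and 30.2% of all tested genes, and their median was -0.04, beside -0.44 for the mitotic members. Whether the lists differ in this was not tested. MKI67, a marker of dividing cells, was at 135, 152 and 141 CPM in the shLITATS1-1 libraries, 201, 211 and 199.9 CPM in the shLITATS1-2 libraries and 296, 281 and 259 CPM in the shNT libraries, with changes of -0.96 (SE 0.042, adjusted p = 8.49e-19) with shLITATS1-1 and -0.45 (SE 0.041, adjusted p = 4.86e-11) with shLITATS1-2 and no overlap between groups. CDKN1A, encoding the CDK inhibitor p21, was at 322, 326 and 333 CPM in the shLITATS1-1 libraries, 291, 283 and 288 CPM in the shLITATS1-2 libraries and 128, 132 and 128 CPM in the shNT libraries. It rose by 1.34 (SE 0.032, adjusted p = 1.91e-47) with shLITATS1-1 and by 1.15 (SE 0.032, adjusted p = 2.38e-43) with shLITATS1-2, and all hairpin libraries lay above all shNT libraries. CDKN1B, encoding p27, rose by 0.31 (SE 0.059) with shLITATS1-1 and 0.61 (SE 0.056) with shLITATS1-2. The CDK inhibitor genes did not all rise. Of 5 tested, 2 rose and 2 fell with shLITATS1-1, and 4 rose and 1 fell with shLITATS1-2. Their median was -0.24 with shLITATS1-1 and 0.61 with shLITATS1-2. WEE1, the kinase that holds CDK1 inactive, changed by -0.20 (SE 0.052) with shLITATS1-1 and -0.36 (SE 0.052) with shLITATS1-2.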

How the data were processed

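RNA-seq of 9 A549 libraries was used, grouped by hairpin from the sample titles. The authors deposited 1 table of raw fragment counts per gene. The submitters' processing notes name GRCh38 and list HTSeq 0.12.4, STAR 2.7.5a, cutadapt 2.10 and FastQC. The strand setting and the annotation release, not given in the sources used here, leave counts of overlapping and antisense genes uncertain.

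Rows that count fragments not assigned to a gene were omitted from library sizes. Ambiguous fragments made up 10.2% to 10.9% of a library and unaligned ones 3.66% to 5.57%. Genes were kept by filterByExpr (minimum count 10) in edgeR 4.0.16 under R 4.3.3 (limma 3.58.1), scaled by TMM (factors 0.964 to 1.06), and fitted together (glmQLFit, robust, 6 residual degrees of freedom). Tests were two-sided, with Benjamini-Hochberg adjustment over all genes. The common biological coefficient of variation was 2.71%, so small differences could pass. Replicate pairs differed by more than sampling noise in all 9 cases (chi-square per degree of freedom 1.47 to 2.72). Alternatives included DESeq2 1.42.0, other scalings and filters, and omission of each library. On counts of 15118 genes simulated for shLITATS1-1 against shNT, the fit recovered 70% of 1.25-fold, 98% of 1.5-fold, 96% of 2-fold and 100% of 4-fold changes (50 genes each), and 6.67% of its calls were false. Exon lengths and overlaps came from GENCODE 29, promoter letters from RefSeq.

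The 59 members and all lists were chosen with earlier results of these data known. Named genes are the members, LITATS1, the lowest and highest gene of each other list with shLITATS1-1, markers, and 5 cell cycle genes.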

Additional observations from a re-analysis of the deposited data

Results flagged for a closer look

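Only 1 member of the set, CDC25B, was called in opposite directions with the hairpins, and the direct test between them passed. Its log2 fold change was -0.68 (SE 0.029) for shLITATS1-1 against shLITATS1-2. Among the other genes named, ARPP19, an inhibitor of the phosphatase that opposes CDK1, stood at 333, 343 and 339 CPM in the shLITATS1-1 libraries, 84.4, 88.8 and 88.2 CPM in the shLITATS1-2 libraries and 283, 271 and 269.8 CPM in the shNT libraries. It rose by 0.30 (SE 0.031, adjusted p = 9.13e-14) with shLITATS1-1 and fell to 31.7% of shNT with shLITATS1-2 (-1.66, SE 0.034, adjusted p = 2.47e-51), a direct difference of 1.96 (SE 0.034, adjusted p = 4.46e-56). CDKN2D, encoding the CDK4 and CDK6 inhibitor p19, stood at 2.16, 2.21 and 2.53 CPM in the shLITATS1-1 libraries, 4.06, 4.96 and 4.61 CPM in the shLITATS1-2 libraries and 3.48, 3.17 and 3.75 CPM in the shNT libraries. It changed by -0.59 (SE 0.17, adjusted p = 0.00155) with shLITATS1-1 and 0.39 (SE 0.14, adjusted p = 0.0155) with shLITATS1-2, and its direct difference was -0.98 (SE 0.16, adjusted p = 1.05e-07). Its shLITATS1-2 call was lost in DESeq2 (adjusted p = 0.071), without shLITATS1-2 replicate 2 (0.0865) and without shNT replicate 2 (0.0765), with a range of 0.00165 to 0.0865 over the alternatives.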

How the results depend on the processing

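No member that was called changed direction under an alternative. Of those not called, MAD2L1, KIF18A and CENPU between the hairpins took the other sign under library-size scaling (-0.078, -0.044 and -0.034), and NUSAP1 with shLITATS1-2 against shNT did so without shLITATS1-2 replicate 1 (0.059 in place of -0.26). The count of members called lower was 57 with shLITATS1-1 against shNT under every alternative except a 2-fold minimum, which left 31. With shLITATS1-2 against shNT it lay between 54 and 56, and between the hairpins between 48 and 54, again apart from that minimum, which left 0 and 1. The same minimum left 1345, 922 and 1289 of the 9449, 8787 and 9439 genes called in these comparisons. Omitting 1 library at a time gave 57 to 57, 54 to 56 and 48 to 51 members lower, and 8848 to 9612, 8133 to 8799 and 8772 to 9670 genes called. NDC80 and SPC24 with shLITATS1-2 were not called under library-size scaling (adjusted p = 0.248 and 0.416), and SPC25, ASPM and FOXM1 were called lower between the hairpins under it. The median of all genes was 0.11 and -0.15 in these comparisons with that scaling, in place of -0.00398 and -0.01. Of the other named genes, RBL2 between the hairpins changed sign under that scaling (-0.025 in place of 0.11). Between the hairpins, omission of 1 library ended the call of KIF14 without shLITATS1-1 replicate 1 (adjusted p = 0.0606, range over alternatives 1.38e-06 to 0.0606), and made NUSAP1 a call without shLITATS1-2 replicate 3 (1.07, adjusted p = 0.041, range 0.041 to 0.339). The cause was not tested.

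With the replicate number as a block, 57, 56 and 51 members were lower and 9295, 8630 and 9264 genes were called. Libraries with the same number did not deviate together (correlations of -0.061 to 0.036 over 9 pairs). In 2 of 18 library comparisons the best match was the library's own number. No pairing by number was seen, but with 3 libraries in each group this check cannot exclude it. NUSAP1 and PRC1 had at most 16 fragments in a library, and the size of difference that such counts could show was not tested.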

Other observations

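Among 10 other kinases and phosphatase regulators of mitosis, 9 fell and 1 rose with shLITATS1-1, and 8 fell and 1 rose with shLITATS1-2. Over all tested genes, 30.5% fell and 30.5% rose with shLITATS1-1, and 28.9% and 27.8% with shLITATS1-2. PBK, a kinase of dividing cells, was at 41.2, 41.7 and 39.9 CPM in the shLITATS1-1 libraries, 66.6, 64.1 and 62.2 CPM in the shLITATS1-2 libraries and 106, 96.8 and 101 CPM in the shNT libraries, with changes of -1.31 (SE 0.044, adjusted p = 3.66e-38) with shLITATS1-1 and -0.65 (SE 0.041, adjusted p = 3.53e-23) with shLITATS1-2. TRIP13, which takes apart checkpoint complexes, fell by 0.95 with shLITATS1-1 and 0.63 with shLITATS1-2. MAD2L1BP, its adaptor for MAD2, fell by 0.19 with shLITATS1-1 and by 0.81 with shLITATS1-2. The shLITATS1-1 call had an adjusted p of 0.00625 to 0.204 over the alternatives. It was lost when any library of shLITATS1-1, or shNT replicate 2 or 3, was left out. It was also lost in DESeq2 (adjusted p = 0.12) and with no filter on low counts (0.0546). CCNE2, a cyclin of S phase entry, rose by 0.44 (SE 0.10, adjusted p = 0.000131) with shLITATS1-1, and its shLITATS1-2 value of -0.16 (SE 0.11, adjusted p = 0.214) did not pass.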
